A study of Saccharomyces cerevisiae with 40 samples.

Results

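Budding yeast (Saccharomyces cerevisiae) cells without nonsense-mediated mRNA decay (NMD) were measured 10 min after galactose was added, and these arrays are compared here with arrays of the same strain at 0 min. The comparison holds the 4 arrays labelled nmd2D at 10 min and the 4 labelled nmd2D at 0 min, 8 of the 40 arrays of the series, paired by biological replicate number. Both groups carried the disruption nmd2::HIS3 and an empty URA3 vector plasmid, in the strain labelled HFY1400, so neither group had NMD2 on the plasmid. The GAL-NMD2 strain, used further on, carried the same disruption with NMD2 under the GAL1 promoter on the plasmid, and its 10 min arrays are likewise set against its 0 min arrays (4 each). According to the series' design text cells grew in raffinose medium lacking uracil at 0 min and then received galactose, whereas the growth protocol of the samples names galactose, and this conflict was not settled. Cells were kept at 30 °C, total RNA came from hot phenol, and biotinylated cRNA from 6 ug of RNA was hybridised. The design text calls the replicates independent, but nothing states that one number marks one culture followed over time, nor gives mating type, batch or scan date.

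Galactose is taken up by the permease Gal2 and converted to a phosphorylated glucose by the Leloir pathway, whose enzymes are the kinase Gal1, the transferase Gal7 and the epimerase Gal10. The activator Gal4 sits on the promoters of these genes and is held inactive by Gal80. Gal3, once bound to galactose and ATP, relieves that block. In raffinose, which neither represses nor induces these genes strongly, the system is poised, and galactose can switch it on within minutes. NMD, for which Nmd2 (Upf2) is a core factor, degrades mRNAs on which translation stops early. A shift of carbon source can also touch the environmental stress response, a common program of stress protection genes in yeast, and the growth genes that usually run opposite to it.

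Values are MAS5 signals, which have no unit, and changes are differences of log2(signal + 16), given as 10 min minus 0 min with the standard error (SE) of a limma fit. A call means a Benjamini-Hochberg adjusted p under 0.05 over all 9275 probe sets that are not controls. On the 8 arrays the median signal lay between 72.3 and 86.0, and correlations of log2 values between arrays were 0.960 to 0.994. The NMD2 probe set averaged 877 ± 62.8 at 10 min and 895 ± 34.9 at 0 min (SD, n = 4 each), so it read signal in the disrupted strain and is no check of the disruption. URA3, the plasmid marker, set replicate 1 apart: its signal was 2911.7 at 10 min and 2750.3 at 0 min, against 754.8 to 930.5 and 686.7 to 942.3 in the other replicates at those times. With all 5 arrays of nmd2D replicate 1 left out, 13 probe sets were called higher and 6 lower, against 16 and 8 with all arrays. Only 14 of them were also among the 24 calls with all arrays, and 5 were not. HIS3, which marks the disruption, had a change of -0.26 on the probe set used here, which was not called (limma adjusted p = 0.456). In a fit of the 20 nmd2D arrays alone another HIS3 probe set was called. Summed signals of a-specific mating genes were 2424.2 to 3556.3 at 10 min and 2630.7 to 2927.4 at 0 min, those of alpha-specific genes 813.1 to 1007.6 and 792.6 to 1093.2, and those of meiotic genes 616.4 to 787.2 and 698.9 to 1000.0, with 0 of these genes called. The brightest alpha-specific gene made up most of its sum. Mean signals of single genes ran from 12.3 to 796.45 in that list and from 149.1 to 1516.0 in the a-specific list.

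After 10 min of galactose few probe sets were called. Of 9275, 16 were called higher (0.173%) and 8 lower (0.0863%), and these 24 moved in their direction in 4 of 4 pairs. They covered 21 genes, 14 higher and 7 lower, and 2 probe sets with several gene symbols, which are not named. The 14 genes were GAL1, GAL2, GAL3, GAL7, GAL10, GAL80, SDD1, TKL2, HSP12, HSP26, DDR2, GRE2, GRE3 and VTS1. The 7 lower genes were STL1, YLR108C, YLR177W, TOS4, ARG3, POP1 and LEU9. Of the 24, 7 changed 2-fold or more, which were those of GAL1, GAL2, GAL3, GAL7, GAL10, one of TKL2, and STL1, the only one of them that fell. At an unadjusted p under 0.05 there were 1005 probe sets, against 463.75 that 5% of all would give. Over all probe sets the median change was -0.04, and with each array centred on its median it was 0.07; in that scaling 42 probe sets were called higher and 5 lower, so that 89.4% of calls were rises, against 66.7% in the scaling as deposited.

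The structural genes of the pathway rose most. GAL2, the galactose permease, had signals of 2318.7, 2757.8, 3752.9 and 3008.9 in replicates 1 to 4 at 10 min, against 203.3, 91.1, 88.8 and 189.1 in the same replicates at 0 min. The change was 4.29 (SE 0.22, 19.6-fold, limma adjusted p = 9.58e-15). The lowest array at 10 min was thus far above the highest at 0 min.

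GAL10, the epimerase, had 1216.3, 1071.3, 2079.4 and 1670.2 at 10 min, against 75.7, 58.9, 66.5 and 111.0 at 0 min, a change of 4.00 (SE 0.19, 16.02-fold, limma adjusted p = 1.50e-15). GAL1, the galactokinase, had 1626.0, 1118.7, 2336.7 and 1243.3 at 10 min, against 91.5, 103.3, 76.6 and 72.2 at 0 min, a change of 3.92 (SE 0.18, 15.2-fold, limma adjusted p = 7.30e-16). GAL7, the uridylyltransferase, had 1208.8, 1041.9, 2422.8 and 2214.2 at 10 min, against 177.7, 68.8, 131.3 and 288.3 at 0 min, a change of 3.31 (SE 0.28, 9.89-fold, limma adjusted p = 1.60e-09). None of the 3 genes had overlapping groups, and each had its highest 10 min signal in replicate 3.

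**Figure D1:**
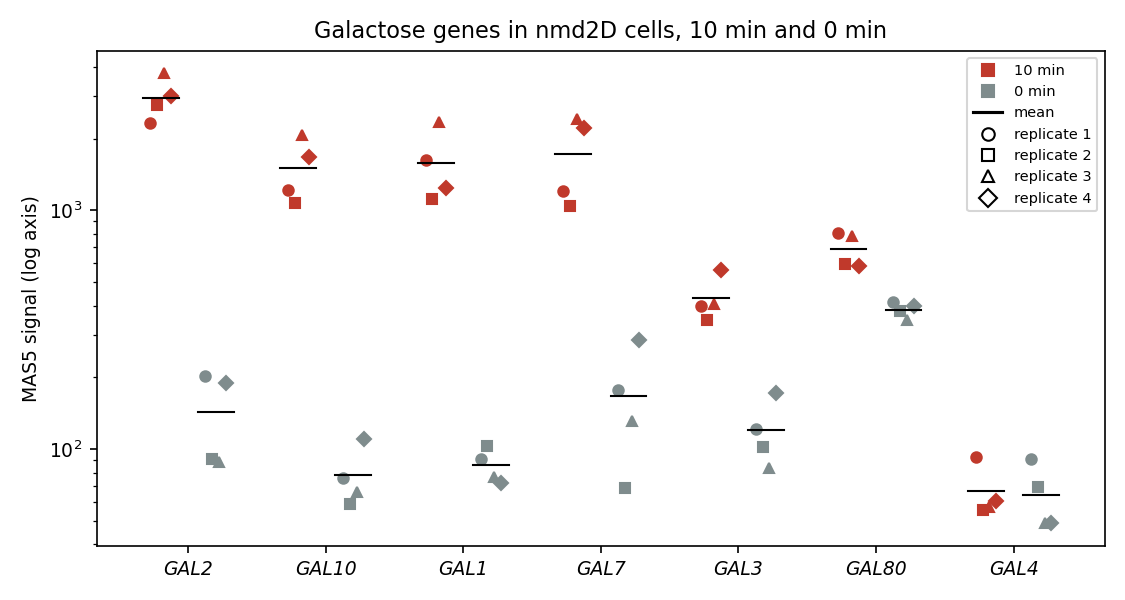
MAS5 signal (log axis) of 7 galactose genes in nmd2D cells, with the 4 arrays at 10 min left of the 4 at 0 min for each gene, replicate numbers as symbols and the mean as a bar. GAL2, GAL10, GAL1, GAL7, GAL3 and GAL80 have no overlap between the times, whereas the GAL4 signals, 55.5 to 93.2 at 10 min and 49.1 to 91.0 at 0 min, overlap.

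The regulators moved less than the enzymes and the permease. GAL3, the galactose sensor, had 397.0, 347.6, 407.0 and 565.5 at 10 min, against 122.2, 102.4, 83.6 and 171.6 at 0 min, a change of 1.73 (SE 0.17, 3.32-fold, limma adjusted p = 6.84e-08). GAL80, the inhibitor of Gal4, had 808.6, 594.5, 780.7 and 583.6 at 10 min, against 413.6, 378.4, 346.5 and 397.4 at 0 min, a change of 0.81 (SE 0.10, 1.75-fold, limma adjusted p = 6.41e-06). Both rose without overlap. GAL4, the activator, had 93.2, 55.5, 57.3 and 60.8 at 10 min, against 91.0, 69.3, 49.3 and 49.1 at 0 min, and its change of 0.04 (SE 0.14) was not called (limma adjusted p = 0.941). Replicate 3 showed the largest rise of all 4 pairs for GAL1, GAL2, GAL3, GAL7, GAL10 and GAL80, and the calls of the first 5 held in all 16 alternative ways of processing or selecting arrays. That of GAL80 was lost only in a fit of the 8 arrays alone.

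At later times, which share the 0 min arrays with the comparison at 10 min, these genes stayed high in nmd2D cells. The changes from 0 min at 10, 20, 40 and 60 min were 3.92, 4.63, 4.93 and 4.95 for GAL1 and 4.29, 4.83, 5.07 and 4.91 for GAL2. Those of GAL10 were 4.00, 4.75, 4.55 and 4.76, and those of GAL7 3.31, 4.05, 3.92 and 3.93. GAL3 had 1.73, 2.04, 2.44 and 2.12, and GAL80 had 0.81, 1.15, 1.24 and 1.5. Each of the 6 genes had a larger value at 20 min than at 10 min. Tested directly, the difference between 20 and 10 min was called for none of them (smallest limma adjusted p = 0.575, GAL1 and GAL10).

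Outside these 7 genes, 14 galactose-related genes were measured. Of these 1 was called higher, against 0.173% of all probe sets, and 0 lower. The list held SDD1, NCA3, RIO1 and SUR7 because of earlier results from these arrays, so its count is not independent evidence. SDD1 had 480.2, 114.7, 298.7 and 342.1 at 10 min, against 239.1, 79.1, 99.9 and 175.6 at 0 min, a change of 0.94 (SE 0.21, limma adjusted p = 0.0490). The groups overlapped and each pair rose. Its changes at 20, 40 and 60 min were 1.65, 2.26 and 2.36, so the 10 min value was the start of a slower rise than that of GAL1. The call of SDD1 was lost without replicate 1, 3 or 4.

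GCY1, an aldo-keto reductase gene with a Gal4 site in its promoter, had a change of 0.50 (SE 0.15, limma adjusted p = 0.179) with 4 of 4 pairs higher, and 1.01 at 60 min. PGM2, the main phosphoglucomutase that links the pathway to glycolysis, had 0.61 (SE 0.30, limma adjusted p = 0.467), whereas PGM1, the minor isoform, had -0.22 with 0 of 4 pairs higher. FUR4, the uracil permease gene beside GAL1 in the R64 gene order, had 0.45 with 3 of 4 pairs higher. KAP104, on the other side of the cluster beside GAL7 and named here for that position, had -0.29 with 1 of 4 pairs higher. The neighbours of the cluster thus did not pass the test.

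The rest of the list was flat or slow at 10 min. PCL10, a cyclin of the kinase Pho85, had 0.36, RIO1, a protein kinase, 0.31, and NCA3 0.29, each with 4 of 4 pairs higher and no call. MTH1, a regulator of hexose transporter genes, had 0.12, and UGP1, which makes UDP-glucose, had 0.13. LAP3, an aminopeptidase, had 0.04, GAL11, a Mediator subunit, 0.01, and SUR7, an eisosome protein, 0.01. GAL83, a subunit of the Snf1 kinase complex, had -0.19. In 7 of 14 genes 4 of 4 pairs were higher and in 1 of 14 lower, where over all probe sets these shares were 7.39% and 15.4%, and the list's median change was 0.21. The 7 include SDD1, NCA3 and RIO1, listed because of earlier results from these arrays, so this share and median are not independent evidence either. NCA3, RIO1 and SUR7 differed more from 0 min later, with 1.5, 1.39 and -1.36 at 60 min.

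The remaining named rises were mostly stress protection genes. HSP12, a membrane-protecting hydrophilin, had signals of 2679.8, 1841.8, 2247.0 and 2426.6 at 10 min, against 1287.5, 951.7, 968.7 and 1611.9 at 0 min, a change of 0.94 (SE 0.16, 1.92-fold, limma adjusted p = 0.00208). DDR2, a gene induced by many stresses, had 3109.5, 2576.0, 2896.8 and 3431.3 at 10 min, against 1644.3, 1381.7, 1216.5 and 2494.4 at 0 min, a change of 0.88 (SE 0.20, 1.83-fold, limma adjusted p = 0.0448). Neither gene's groups overlapped. HSP26, a small heat shock chaperone, had 303.2, 92.2, 128.1 and 216.6 at 10 min, against 147.0, 52.1, 56.7 and 98.5 at 0 min, a change of 0.91 (SE 0.17, limma adjusted p = 0.00967). Its groups overlapped, while each pair rose.

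Reductases of the osmotic and oxidative stress response rose too. GRE2, a methylglyoxal reductase, had 115.6, 140.0, 189.9 and 196.4 at 10 min, against 67.0, 62.7, 82.9 and 109.5 at 0 min, a change of 0.87 (SE 0.15, 1.82-fold, limma adjusted p = 0.00208). GRE3, an aldose reductase, had 808.1, 809.7, 954.2 and 1019.6 at 10 min, against 632.3, 507.3, 503.1 and 763.3 at 0 min, a change of 0.58 (SE 0.13, 1.49-fold, limma adjusted p = 0.0494). Both had groups without overlap. TKL2, the minor transketolase of the pentose phosphate pathway, was read by 3 probe sets that did not give the same call. One had 74.8, 109.4, 109.2 and 166.7 at 10 min, against 38.8, 49.7, 24.8 and 62.2 at 0 min, a change of 1.13 (SE 0.18, limma adjusted p = 0.000704), and another had 0.99 (adjusted p = 0.00613). The brightest one had 0.77 and was not called (adjusted p = 0.162), with 3 of 4 pairs higher. VTS1, an RNA-binding protein that promotes deadenylation of its targets, belonged to none of these groups. It had 155.6, 169.5, 115.6 and 154.3 at 10 min, against 95.5, 105.3, 68.0 and 93.2 at 0 min, a change of 0.63 (SE 0.14, limma adjusted p = 0.0448), and its groups did not overlap. Of the 16 probe sets called higher, 12 had no overlap between the times (0.69% of all probe sets did), which only describes them, since the same arrays chose them. The calls of HSP12, HSP26, DDR2, GRE2, GRE3, VTS1 and both called probe sets of TKL2 were absent without replicate 3, which left 7 of the 24 calls, and DDR2 and VTS1 were also lost without replicate 1, 2 or 4, HSP26 without 1 or 4, GRE3 without 2 or 4, GRE2 without 2, and 1 probe set of TKL2 without 4. Without a replicate block the calls left were those of the 6 GAL genes and 1 probe set of TKL2.

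**Figure D2:**
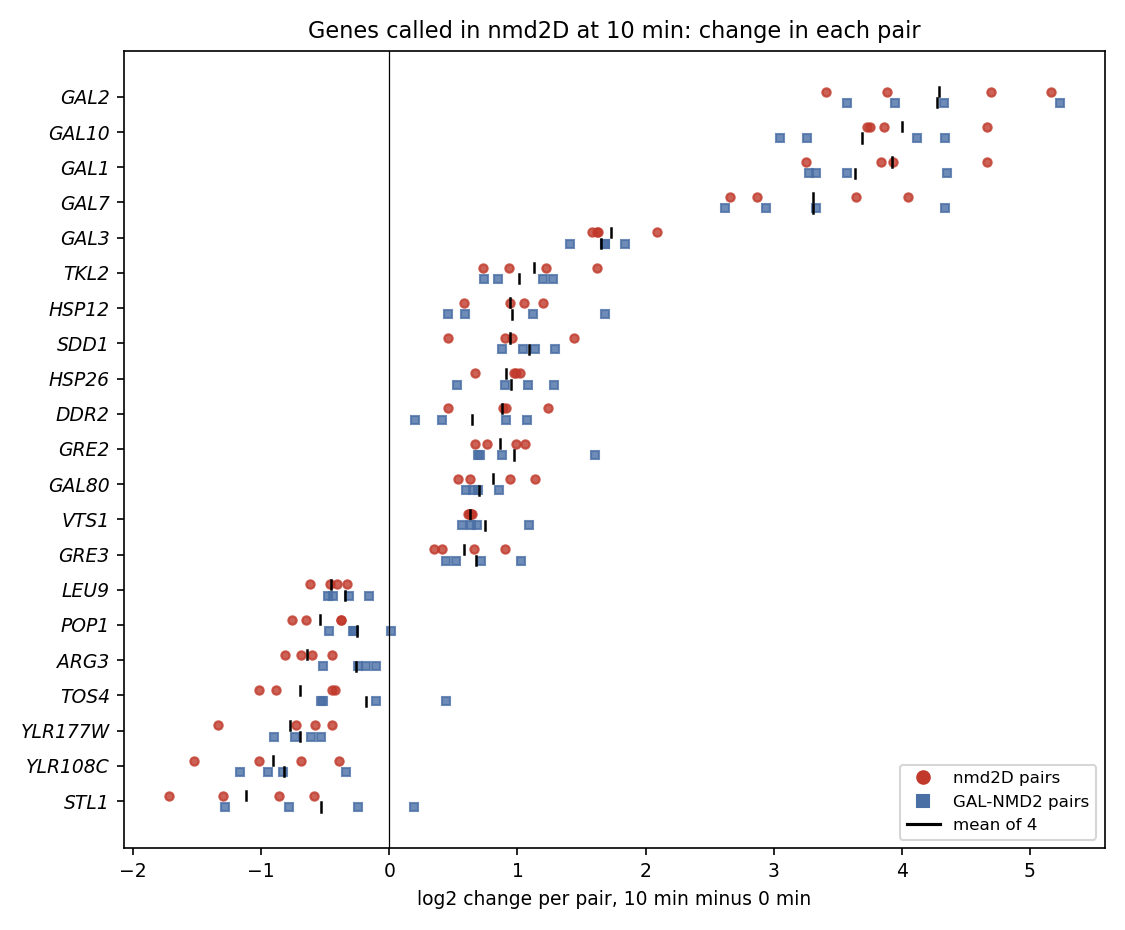
Log2 change in each of the 4 pairs, 10 min minus 0 min, for the 21 genes called in nmd2D, with nmd2D pairs (circles) above GAL-NMD2 pairs (squares) and a bar at each mean; TKL2 is shown by the probe set with the change of 1.13. Each nmd2D pair lies on the same side of 0 as its gene's mean, and the nmd2D and GAL-NMD2 points overlap for most genes.

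As a group, 3 of the 37 measured environmental stress genes were called higher (HSP12, HSP26 and DDR2), against 0.173% of all probe sets, and 0 lower. In 25 of 37 (67.6%) 4 of 4 pairs were higher and in 2 of 37 (5.41%) lower, against 7.39% and 15.4% of all probe sets. The list's median change was 0.40, against -0.04 for all probe sets, and its medians in the 4 pairs were 0.32, 0.45, 0.54 and 0.25. Members that did not pass the test included CTT1, the cytosolic catalase, with 0.80 (adjusted p = 0.0601), SOL4, a 6-phosphogluconolactonase, with 0.78 (0.0954), ALD3, an aldehyde dehydrogenase, with 0.75 (0.0873), and OM45, a mitochondrial outer membrane protein, with 0.69 (0.194), all with 4 of 4 pairs higher. With arrays centred on their medians 27 of 37 had 4 of 4 pairs higher, against 21.9% of all probe sets, 0 had 4 lower, and 11 were called. The count of called members was 1 without replicate 1, 0 without replicate 3 and 1 without replicate 4.

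Of 28 measured heat shock and chaperone genes 1 was called higher (HSP26), against 0.173% of all probe sets, and 0 lower. In 8 of 28 (28.6%) 4 of 4 pairs were higher, against 7.39% of all probe sets, and in 15 of 28 (53.6%) after centring, against 21.9%, and the median change was 0.10. HSP30, a membrane protein that restrains the plasma membrane proton pump, had 0.82 (adjusted p = 0.0873), and SSE2, an Hsp110 co-chaperone, had 0.50 (0.153). Of 19 glycerol and osmotic genes 2 were called higher (GRE2 and GRE3) and 1 lower (STL1), against 0.173% and 0.0863% of all probe sets. In 8 of 19 (42.1%) 4 of 4 pairs were higher and in 2 (10.5%) lower, against 7.39% and 15.4%, and the median was 0.17. After centring 11 (57.9%) were higher and 1 (5.26%) lower, against 21.9% and 5.66%.

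Among storage, sugar and respiration genes none was called. Of 16 trehalose and glycogen genes 0 were called, 4 had 4 of 4 pairs higher and 4 lower, and the median was 0.07. GDB1, the glycogen debranching enzyme, had 0.58 (adjusted p = 0.0883), GPH1, the glycogen phosphorylase, had 0.42 (0.344), TPS1, which makes trehalose-6-phosphate, had 0.40 (0.230), and GAC1, a phosphatase subunit that promotes glycogen synthesis, had -0.46 (0.293). SUC2, the invertase that also cleaves raffinose, had 0.52 (0.214) on its brightest probe set and HXT5, a hexose transporter, 0.59 (0.176), both with 4 of 4 pairs higher. Of 22 glycolysis genes 0 were called, but 10 (45.5%) had 4 of 4 pairs higher, against 7.39% of all probe sets, with a median of 0.10. In the respiration list 0 of 42 were called and 18 (42.9%) had 4 of 4 pairs higher, with a median of 0.08. After centring these counts were 17 of 22 (77.3%) and 27 of 42 (64.3%), against 21.9% of all probe sets. In the GAL-NMD2 strain at 10 min, in the scaling as deposited, the glycolysis list went the other way, with a median of -0.07. There 2 of 22 had 4 of 4 pairs higher and 6 lower, against 9.54% and 9.18% of all probe sets.

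Among the falls, STL1, the glycerol proton symporter, had the largest. Its signals were 26.1, 58.8, 43.1 and 55.9 at 10 min, against 87.5, 96.6, 178.9 and 114.6 at 0 min, a change of -1.12 (SE 0.18, 2.17-fold lower, limma adjusted p = 0.000882). The groups did not overlap. The change was -2.12 at 20 min and -1.70 at 60 min, so it was larger after 10 min.

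YLR108C had 33.3, 45.9, 30.8 and 51.9 at 10 min, against 48.7, 84.1, 78.5 and 179.4 at 0 min, a change of -0.91 (SE 0.17, limma adjusted p = 0.00942). YLR177W had 187.4, 158.7, 110.2 and 190.0 at 10 min, against 322.0, 222.2, 172.7 and 504.7 at 0 min, a change of -0.77 (SE 0.15, limma adjusted p = 0.0115). Both groups overlapped, and replicate 4 was highest at 0 min in both genes. The changes at 60 min were -0.77 and -0.83, so these genes were still low at the end of the hour.

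TOS4, a target of the G1/S transcription factors, had 38.5, 29.0, 26.9 and 29.0 at 10 min, against 94.5, 44.4, 42.6 and 67.1 at 0 min, a change of -0.69 (SE 0.16, limma adjusted p = 0.0490), without overlap. POP1, a subunit of RNase P and RNase MRP, had 155.9, 417.9, 340.4 and 527.0 at 10 min, against 254.6, 547.2, 586.4 and 689.7 at 0 min, a change of -0.54 (SE 0.11, limma adjusted p = 0.0171). Its groups overlapped, with replicate 1 lowest at both times, and each pair fell.

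The other 2 falls were in amino acid synthesis. ARG3, the ornithine carbamoyltransferase of arginine synthesis, had 211.1, 272.9, 473.1 and 218.9 at 10 min, against 328.6, 451.2, 651.1 and 397.3 at 0 min, a change of -0.64 (SE 0.13, limma adjusted p = 0.0214). LEU9, an isopropylmalate synthase of leucine synthesis, had 285.4, 447.9, 619.5 and 538.8 at 10 min, against 446.2, 623.9, 782.4 and 720.0 at 0 min, a change of -0.45 (SE 0.09, limma adjusted p = 0.0152). Each pair fell in both genes, with overlap between the groups. Of the 8 probe sets called lower, 2 had no overlap between the times (1.43% of all probe sets did), again a description of probe sets chosen on these arrays.

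A further 3 genes with all pairs lower did not pass the test: FET4, a low-affinity iron transporter, with -0.80 (adjusted p = 0.214), ICY1 with -0.72 (0.0856) and BIL1 with -0.63 (0.185). The median signal of the arrays was lower at 10 min in all pairs, 75.4, 73.1, 72.3 and 75.4 at 10 min against 86.0, 75.6, 79.3 and 84.7 at 0 min (exact two-sided permutation test over pairs p = 0.13, the smallest that 4 pairs allow), and its part in the falls was not tested, while with arrays centred on the median ARG3 at -0.53 and LEU9 at -0.34 were no longer called and STL1, YLR108C, YLR177W, TOS4 and POP1 were still called lower. Signal at the 3-prime end of the actin control, divided by that at its 5-prime end, was 1.79 ± 0.44 at 10 min and 1.84 ± 0.47 at 0 min (SD, n = 4 each, exact permutation p = 1.0). Without replicate 3 only STL1 was still called lower, and without replicate 4 likewise. Without replicate 2 STL1 and YLR177W were called, and without replicate 1 also YLR108C, and no fall was called without a replicate block.

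Among cell cycle genes, the G1/S and mitotic lists had mostly negative values, while M/G1 and histone genes had medians near that of all probe sets. Of 29 measured G1/S genes, 1 was called lower (TOS4), against 0.0863% of all probe sets, and 0 higher. In 19 of 29 (65.5%) 4 of 4 pairs were lower and in 0 of 29 higher, against 15.4% and 7.39% of all probe sets. The median change was -0.28, and the pair medians were -0.22, -0.17, -0.42 and -0.31. RAD27, the flap endonuclease, had -0.49 (adjusted p = 0.293), RFA1, the large subunit of replication protein A, -0.46 (0.327), CDC45, a replication initiation factor, -0.44 (0.287), and POL12, a subunit of DNA polymerase alpha, -0.44 (0.196). With arrays centred on their medians the list's median was -0.16, and 14 of 29 had 4 of 4 pairs lower, against 5.66% of all probe sets.

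Of 15 mitotic genes 0 were called, 10 (66.7%) had 4 of 4 pairs lower and 0 higher, against 15.4% and 7.39% of all probe sets, and the median was -0.25. BUD4, a bud site protein, had -0.54 (adjusted p = 0.308), KIN3, a protein kinase, -0.47 (0.179), and CLB3, a B-type cyclin, -0.45 (0.286). After centring 5 of 15 had 4 of 4 pairs lower, against 5.66% of all probe sets, with a median of -0.14. Of 17 M/G1 genes 0 were called, 2 (11.8%) had 4 of 4 pairs lower and 1 (5.88%) higher, with a median of -0.05. After centring 0 were lower and 5 (29.4%) higher, against 5.66% and 21.9% of all probe sets. Of 4 measured histone genes 0 were called and 0 had 4 of 4 pairs in either direction, with a median of -0.05.

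Genes of ribosome production gave small values. Of 136 ribosome biogenesis genes 0 were called, 33 (24.3%) had 4 of 4 pairs lower and 6 (4.41%) higher, against 15.4% and 7.39% of all probe sets. The median was -0.11, which after centring was 0.01. The pair medians were -0.39, -0.02, -0.00 and -0.04, so the shift lay mostly in replicate 1. CBF5, the pseudouridine synthase of rRNA, had -0.48 (adjusted p = 0.246), and DIM1, an rRNA dimethylase, -0.47 (0.320). NOG2, a GTPase of large subunit export, went the other way with 0.67 (0.0766). Of 34 subunits of RNA polymerases I and III 0 were called and 12 (35.3%) had 4 of 4 pairs lower, against 15.4% of all probe sets, with a median of -0.14. After centring 7 of 34 (20.6%) were lower, against 5.66% of all probe sets, with a median of -0.03. RPA34, a polymerase I subunit, had -0.53 (0.330). In the tRNA and translation list 0 of 40 were called, 22 (55.0%) had 4 of 4 pairs lower and 0 higher, with a median of -0.18. After centring 11 (27.5%) were lower and 4 (10.0%) higher, against 5.66% and 21.9% of all probe sets, with a median of -0.07. The 81 ribosomal protein genes had a median of -0.02, with 0 called and 9 with 4 of 4 pairs in each direction.

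Amino acid synthesis genes under general control, 45 measured, held 2 called lower (ARG3 and LEU9), against 0.0863% of all probe sets, and 0 higher. In 13 (28.9%) 4 of 4 pairs were lower, against 15.4% of all probe sets, and in 3 higher, with a median of -0.08. After centring 5 (11.1%) had 4 of 4 pairs lower and 7 (15.6%) higher, against 5.66% and 21.9% of all probe sets, with a median of 0.03. HIS1, the first enzyme of histidine synthesis, had -0.52 and TRP3, of tryptophan synthesis, -0.44 (adjusted p = 0.0873 each), both with 4 of 4 pairs lower. Of 31 iron, copper and zinc genes 0 were called. FET3, the multicopper oxidase of iron uptake, had -0.50 (0.340) with groups that did not overlap. Among 21 mRNAs known as NMD substrates 0 were called, and the median was -0.06, near the -0.04 of all probe sets. In this list 4 (19.0%) had 4 of 4 pairs lower and 1 (4.76%) higher, near the 15.4% and 7.39% of all probe sets.

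**Figure D3:**
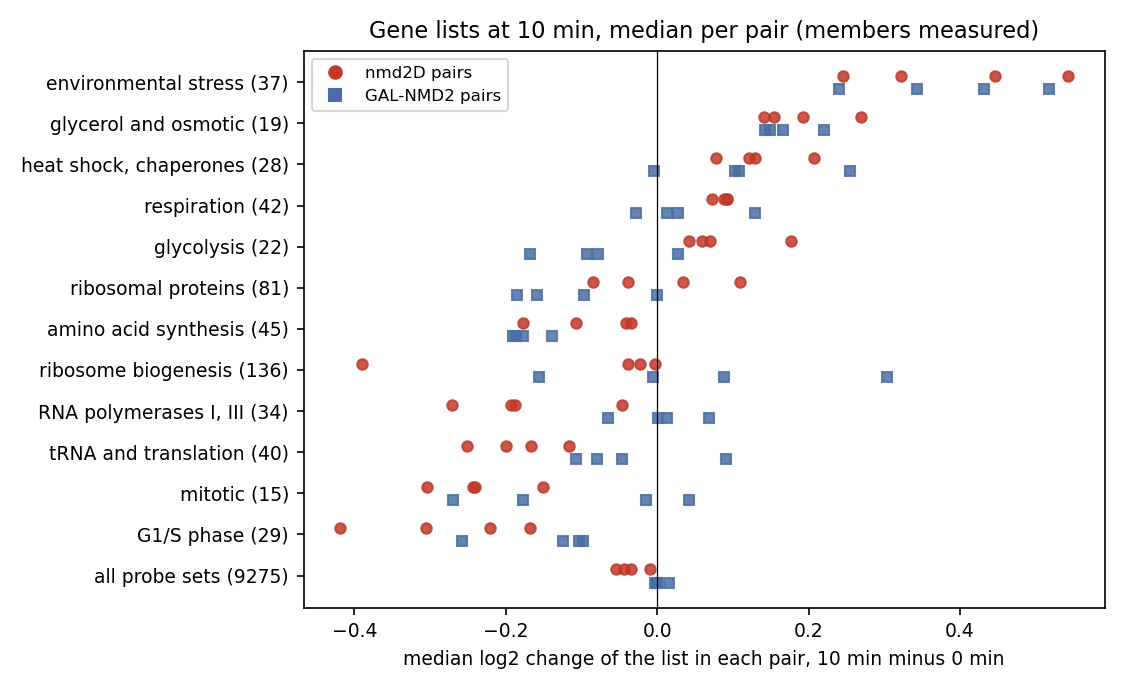
Median log2 change of 12 gene lists and of all probe sets in each of the 4 pairs, 10 min minus 0 min, with nmd2D pairs (circles) above GAL-NMD2 pairs (squares) and the number measured in brackets. In nmd2D the environmental stress medians, 0.25 to 0.54, lie right of the medians of all probe sets and the G1/S medians, -0.42 to -0.17, left of them.

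The GAL-NMD2 strain gave a further set of 4 pairs, in which NMD2 itself was under the GAL1 promoter. Where nmd2D had 16 probe sets called higher and 8 lower, GAL-NMD2 had 22 higher (0.237%) and 6 lower (0.0647%). Called in both strains in the same direction were 16 probe sets, 14 higher and 2 lower, which is 66.7% of the nmd2D calls and 57.1% of the GAL-NMD2 calls. The 2 lower ones were YLR108C and YLR177W. All 24 nmd2D calls had the same sign in GAL-NMD2, and the matching share over all probe sets is not given here. The strains share replicate numbers.

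GAL1 had a change of 3.92 in nmd2D and 3.63 in GAL-NMD2, with a difference of 0.29 (95% interval -0.23 to 0.81), and GAL2 had 4.29 and 4.27 (difference 0.02, -0.63 to 0.67). HSP12 had 0.94 in nmd2D and 0.96 in GAL-NMD2 (difference -0.02, -0.48 to 0.45), and GRE2 0.87 and 0.97 (difference -0.10, -0.53 to 0.33). The widest gap among the nmd2D calls was that of STL1, with -1.12 in nmd2D and -0.53 in GAL-NMD2 (difference -0.59, 95% interval -1.11 to -0.07). TOS4 had -0.69 in nmd2D and -0.18 in GAL-NMD2 (difference -0.52, -0.97 to -0.06), and ARG3 -0.64 and -0.26 (difference -0.38, -0.76 to 0.01). These intervals are not adjusted for the number of probe sets.

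Tested over all probe sets, the change in nmd2D minus that in GAL-NMD2 was called for 0 by limma (smallest adjusted p = 0.998), and 444 had an unadjusted p under 0.05, against 463.75 that 5% would give. Among the genes called in nmd2D the lowest end of an interval was -1.11 (STL1) and the highest 0.87 (GAL10). Of the lists, environmental stress had a median of 0.40 in nmd2D and 0.38 in GAL-NMD2, and 25 of 37 members had 4 of 4 pairs higher in each strain. Over all probe sets that share was 7.39% in nmd2D and 9.54% in GAL-NMD2. The G1/S median was -0.28 in nmd2D and -0.11 in GAL-NMD2, and that of ribosome biogenesis -0.11 and 0.06. Of 29 G1/S genes 19 had 4 of 4 pairs lower in nmd2D and 8 in GAL-NMD2. These counts were 10 and 3 of 15 mitotic genes and 33 and 12 of 136 ribosome biogenesis genes. They were 22 and 4 of 40 tRNA and translation genes and 12 and 4 of 34 polymerase subunits. General control genes went the other way, with 13 and 21 of 45. Over all probe sets the share was 15.4% in nmd2D and 9.18% in GAL-NMD2. The difference between strains was not tested for lists. The GAL-NMD2 count was 6 without GAL-NMD2 replicate 3 and 12 without replicate 4, and 5 without a replicate block.

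The nmd2D arrays at 60 and 20 min were also compared with each other, a comparison added after the 10 min values were seen. Their values do not enter the difference between 10 and 0 min, but they bear the same 4 replicate numbers, and as part of the fit of 40 arrays they add to the estimate of spread behind the 10 min calls, which were 5 in a fit of the 8 arrays alone. Of all probe sets, 71 were called lower at 60 than at 20 min (0.765%) and 99 higher (1.07%). The stress genes that had risen at 10 min were lower at 60 min than at 20 min. HSP12 differed by -1.06 (limma adjusted p = 0.000215), HSP26 by -1.54 (8.40e-06), DDR2 by -1.36 (0.000127), GRE2 by -0.89 (0.000874) and GRE3 by -0.61 (0.0127), and the TKL2 probe set with the largest 10 min change by -1.38 (1.97e-05).

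The GAL genes did not show that pattern. GAL1 differed by 0.31 (limma adjusted p = 0.423), GAL2 by 0.07, GAL10 by 0.01, GAL7 by -0.12 and GAL80 by 0.35 (0.0598), and none was called. VTS1 and SDD1, with 0.34 (0.223) and 0.71 (0.0777), were not called either. Changes from 0 min at 10, 20, 40 and 60 min were 0.94, 1.14, 1.01 and 0.08 for HSP12, 0.87, 0.44, -0.45 and -0.45 for GRE2, and 0.63, 0.70, 0.91 and 1.04 for VTS1. At 60 min the 6 stress-related genes thus lay between -0.45 (GRE2) and 0.08 (HSP12) relative to 0 min, while the GAL genes, SDD1 and VTS1 were still above 0 min.

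**Figure D4:**
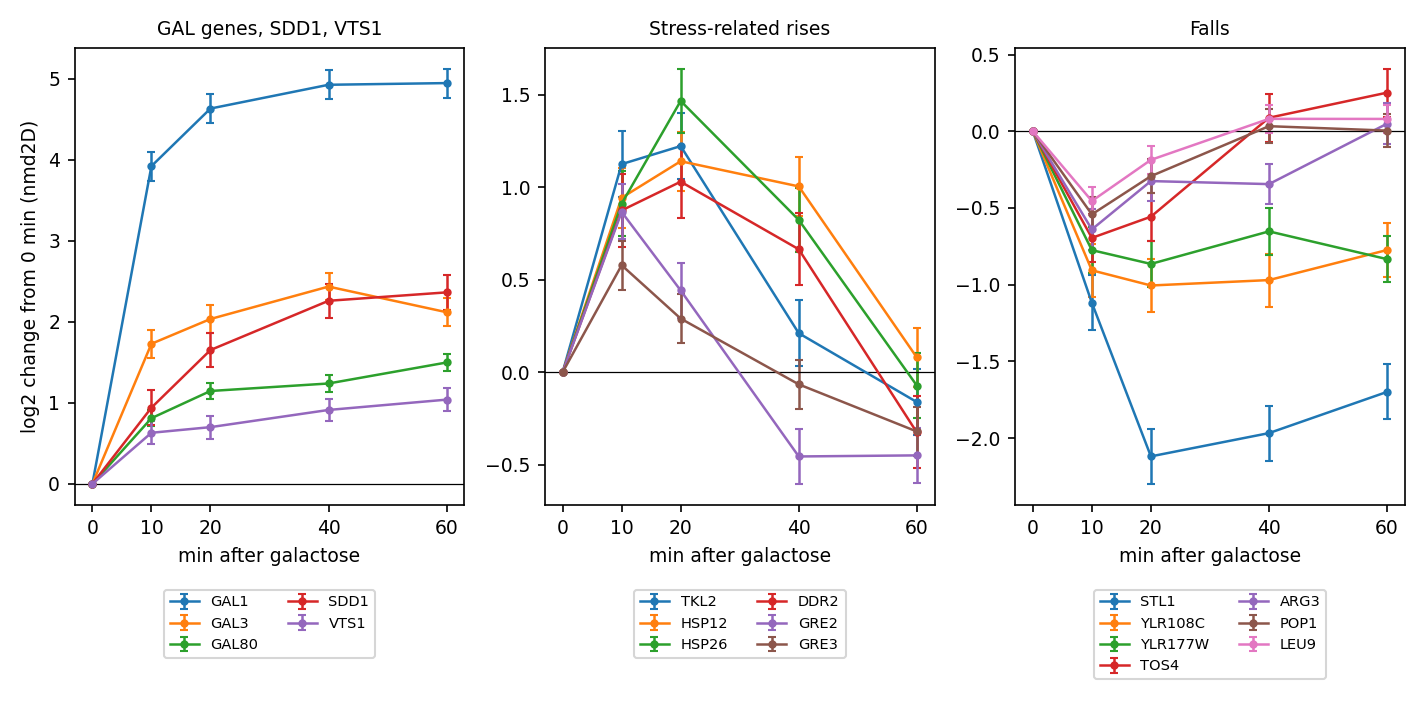
Log2 change from 0 min in nmd2D cells at 10, 20, 40 and 60 min with the limma SE, for galactose genes with SDD1 and VTS1, for stress-related rises and for the falls; all points share the 0 min arrays. GAL1 reaches 4.95 at 60 min, HSP12 ends at 0.08, and STL1 is lowest at 20 min with -2.12.

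The lists moved likewise between 20 and 60 min. In environmental stress, 19 of 37 members were called lower at 60 than at 20 min and 0 higher, with CTT1 at -0.99 (limma adjusted p = 0.00374) and SOL4 at -1.41 (0.000134). The list's changes from 0 min had medians of 0.40, 0.22, -0.19 and -0.35 at 10, 20, 40 and 60 min. In G1/S, 10 of 29 were called higher at 60 than at 20 min and 0 lower, with TOS4 at 0.81 (0.00466) and RAD27 at 0.77 (0.0173), and the medians from 0 min were -0.28, -0.16, 0.14 and 0.25. Ribosome biogenesis had medians of -0.11, 0.01, 0.15 and 0.37, with 3 of 136 called higher at 60 than at 20 min. The stress count was 9, 13, 10 and 10 without nmd2D replicates 1, 2, 3 and 4, and 4 without a replicate block; the G1/S count was 1, 6, 3 and 3, and 0 without the block.

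**Figure D5:**
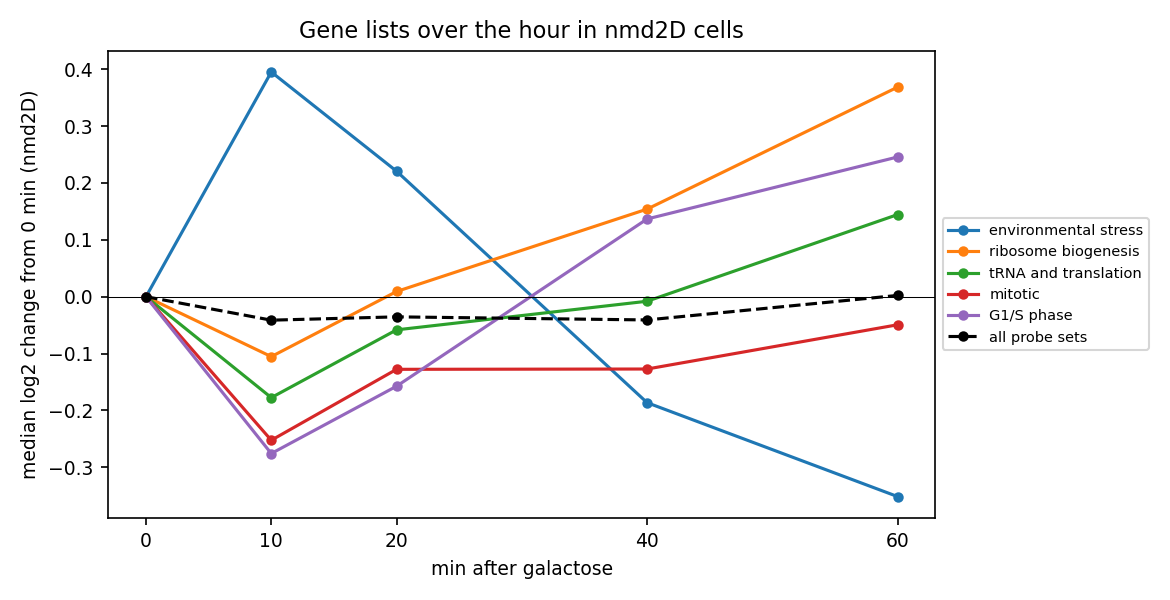
Median log2 change from 0 min of 5 gene lists and of all probe sets (dashed) in nmd2D cells at 10, 20, 40 and 60 min. Environmental stress is highest at 10 min with 0.40 and lowest at 60 min with -0.35, and the G1/S list runs from -0.28 at 10 min to 0.25 at 60 min.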

How the data were processed

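Biotinylated cRNA was hybridised to Affymetrix arrays, and the authors deposited linear MAS5 signal intensities, per the submitters' processing notes. The labels used here give no MAS5 version or setting. The trimmed mean was 249.9 on each of the 8 arrays, so each array carries one scaling. Detection calls were not used, and 4 arrays per group limit the precision. Of 9335 probe sets 60 were controls. Of the other 9275, 6504 had 1 symbol in the platform annotation (all matched to the R64 gene table, used for names and gene order), 328 had several and 2443 none.

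The analysis took log2(intensity + 16) and fitted limma 3.58.1 (R 4.3.3, lmFit, eBayes with trend, no filter on dim probe sets) to all 40 arrays, with 10 group means and a block for each of 8 cultures (strain and replicate number). Same-numbered nmd2D arrays deviated together (r = 0.61 to 0.71 per number, at most 0.11 between numbers), so numbers were taken to pair the arrays. Adding 16 understates changes of dim probe sets. A probe set was called at a p under 0.05, adjusted by Benjamini and Hochberg over all probe sets of the comparison. A code check on simulated data came first.

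Members and gene lists were chosen with earlier results of these data known. Lists are described by counts, pairs and medians, with 1 probe set per gene, the brightest. Named genes were all galactose genes, all called genes of 1 symbol, falls filled up to 10 with the largest uncalled ones that were lower in 4 of 4 pairs with an unadjusted p under 0.05, up to 4 further members per list with the largest change, and NMD2, HIS3 and URA3. Alternatives changed the block, the arrays, the pseudocount (1, 64), a filter (20th, 40th percentile), the scaling and the variance model, or left out a replicate. No probe or promoter sequence was used, so cross-hybridisation between related genes (GAL1 and GAL3, for example) was not examined.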

Additional observations from a re-analysis of the deposited data

Results flagged for a closer look

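In 214 sets of 4 values (signals at either time, or changes per pair, of the named genes in nmd2D), 1 value stood apart from the other 3 by Dixon's test in 14; chance gives about 1 in 20. Replicate 3 had the largest pair change for GAL10, 4.67 against 3.73 to 3.86 in the other pairs, for GAL3, 2.09 against 1.58 to 1.63, and for NCA3, 0.84 against 0.10 to 0.12. POL12 in that pair had -0.86 against -0.30 to -0.29. Replicate 2 had the smallest change of HSP26, 0.67 against 0.97 to 1.02, and of GDB1, 0.43 against 0.63 to 0.65.

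At 10 min, replicate 1 had the highest GAL4 signal, 93.2 against 55.5 to 60.8, the highest POL12 signal, 72.7 against 42.2 to 44.4, and the lowest SUC2 signal, 719.4 against 1922.5 to 2099.5. URA3 was highest in replicate 1 at both times, with 2911.7 against 754.8 to 930.5 at 10 min and 2750.3 against 686.7 to 942.3 at 0 min. NMD2 was lowest in replicate 1 at 0 min, with 842.6 against 908.9 to 914.3. Replicate 4 was lowest for CDC45 at 10 min, 38.9 against 44.5 to 45.4, and for CBF5 at 0 min, 724.5 against 912.7 to 943.0.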

How the results depend on the processing

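Counts of calls depended on the processing. With 16 rises and 8 falls as reported, there were 7 and 0 with no replicate block, 11 and 5 with a block by replicate number over both strains, 5 and 0 in a fit of the 8 arrays alone, and 21 and 15 in a fit of the 20 nmd2D arrays. A filter at the 40th percentile gave 25 and 13, median centring 42 and 5, quantile normalization 28 and 16, and a fit without a variance trend 20 and 18. Leaving out 1 nmd2D replicate gave 6 to 13 rises and 1 to 6 falls, and kept 7 to 14 of the 24 reported calls. The 28 GAL-NMD2 calls became 5 with no replicate block and 6 to 36 without 1 replicate of either strain, and the difference between strains was called for 0 probe sets in every alternative run. The called genes kept their sign in the 16 alternatives, of which STL1 had 15 because the 40th percentile filter left it out. Most alternatives could not have turned these signs, since each call had moved in its direction in 4 of 4 pairs. Only median centring and quantile normalization could have done so. Signs turned only in uncalled values near 0: SUR7 was -0.051 after quantile normalization and -0.19 to 0.12 without 1 replicate, URA3 -0.058 after quantile normalization and -0.029 to 0.069 without 1 replicate, and NMD2 0.081 after median centring. Without 1 replicate GAL4 ranged from -0.020 to 0.14, GAL11 from -0.17 to 0.16 and UGP1 from -0.0091 to 0.23. The causes were not tested. Signals near 0 carry little information, since the added 16 dominates there.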
